A study of Mus musculus with 15 samples.

Results

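Among the genes measured in NMuMG mouse mammary epithelial cells, 61 of 12934 were chemokines, interleukins, members of the tumor necrosis factor (TNF) family, colony-stimulating factors or their receptors. They were taken by gene symbol (Ccl, Cxcl, Cx3cl1, Ccr, Cxcr, Ackr, Csf1 to Csf3, Tnfsf, Tnfrsf, and the interleukins whose number begins with 1 or is any 2-digit number that begins with 3 or 4, with their receptors and antagonists but without Il11ra1), with a mean of at least 0.5 CPM (read counts scaled to the library total) over the samples of at least 1 of the 2 deposited tables. The rule therefore left out interleukins such as Il6 by their number alone. Of the 61, 60 came from the table with the knockout clones, 41 from the table with the knockdown, and 40 from both. They comprised 16 chemokines, 5 chemokine receptors, 2 colony-stimulating factors and 2 of their receptors, 8 interleukins or soluble antagonists, 12 interleukin receptor chains, 4 TNF family ligands and 12 TNF family receptors. The level decided membership near the limit: Il1rl1 (0.542 CPM) and Cxcl15 (0.551 CPM) were just inside it in the clone table, and Ccr10 (0.417 CPM) and Tnfsf15 (0.398 CPM) just outside.

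The study asked how PCBP1, an RNA-binding protein, acts through the secreted protein FAM3C on LIFR, the receptor of leukemia inhibitory factor. Dataset 2 held 2 NMuMG samples, wild type and listed with no treatment (the paper describes its control cells as carrying a scrambled shRNA), and 2 NMuMG samples with lentiviral shRNA knockdown of PCBP1 (shPCBP1). Every line of dataset 1 carried the PCBP1 knockdown, the controls included, with 1 RNA sample per line: 4 shPCBP1 lines (CT clones 1 to 3, which had received Cas9 without a guide, and the line before editing, called unaltered), 3 FAM3C KO clones (FAM3C -/-), 3 LIFR KO clones (LIFR -/-) and 1 FAM3C/LIFR double KO. Each KO line was grown from a diluted colony after a pair of guides was used to cut out a short stretch of coding sequence, so that a KO group is a set of single clones.

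Pcbp1 was at 287 and 312 CPM in NMuMG and at 14.1 and 14.2 CPM in shPCBP1. Fam3c was at 26.4, 33.9 and 42.9 CPM in FAM3C KO clones 1 to 3 and at 47.0 to 59.4 CPM in the shPCBP1 lines, while LIFR KO clones 1 to 3 held 34.9, 29.3 and 14.6 CPM of Lifr, which was at 25.8 to 40.2 CPM in shPCBP1. A short excision can leave the transcript in place, so these levels do not check the KO labels. Epithelial keratins were abundant (Krt8 at 1226 to 1302 CPM in dataset 2), while leukocyte markers were near 0 apart from Cd68, with sums of 1.55 to 2.01 CPM over the 8 of 12 listed markers that the dataset 2 table holds and of 4.55 to 11.1 CPM over the 3 that the dataset 1 table holds. Ptprc, the common leukocyte antigen, was at 0.0355 CPM or less in every dataset 2 sample. In shPCBP1, by the threshold given below, all 7 tested mesenchymal markers rose and 5 of 6 tested epithelial markers fell. Of all genes tested in dataset 2, 42.1% rose and 38.0% fell. The log2 fold changes of the epithelial markers were -3.49 (Krt7), -1.2 (Ocln), -0.65 (Cdh1), -0.17 (Krt19), -0.07 (Krt8) and 0.08 (Krt18), so that the abundant keratins hardly differed.

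Libraries from LIFR KO clones 2 and 3 and from the double KO stood apart. In each, the genes of high GC content were lower relative to the mean of the shPCBP1 lines (Spearman's rho over 12603 genes, given as a description, -0.76, -0.75 and -0.71), whereas rho lay between -0.29 and 0.24 in the other 8. The steps between low values implied totals of 16032550 to 46902046 reads in dataset 1 and 52987385 to 56464146 reads in dataset 2. The genes called in LIFR KO below are therefore also given with clone 1 as the only LIFR KO library.

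Chemokines are small secreted proteins that draw leukocytes along a gradient through G protein-coupled receptors, and epithelial cells use them to call in monocytes and neutrophils. Interleukin-1 and TNF family receptors signal through adaptor proteins to the transcription factor NF-kB, which in turn drives many chemokine genes. Colony-stimulating factor 1 (Csf1) supports macrophages, and interleukin-33 (Il33) is stored in epithelial nuclei and released on injury as an alarm signal. In the mammary gland, macrophages and the TNF family receptor RANK (Tnfrsf11a) take part in the growth of ducts and alveoli.

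The levels per kilobase of transcript put the TNF family receptor Tnfrsf12a, the receptor of TWEAK, highest in both groups of dataset 2 (107 CPM per kilobase in NMuMG and 239 in shPCBP1) and in the shPCBP1 lines of dataset 1 (316). In NMuMG it was followed by the neutrophil chemokine Cxcl5 (82.8), Il33 (37.6) and the monocyte chemokine Ccl2 (34.0). In dataset 2 shPCBP1 the order after Tnfrsf12a was Ccl2 (125), Cxcl5 (85.7), Csf1 (37.8) and Tnfrsf23 (32.7), and Il33 stood at 15.8. Ccl2 ranked first in FAM3C KO (313) and Cxcl5 in LIFR KO (343), by the group means. Across LIFR KO clones 1 to 3, Cxcl5 was at 338, 616 and 666 CPM and Tnfrsf12a at 288, 177 and 152 CPM. Clones 2 and 3 carried the GC shift, and the GC content is 37.8% for Cxcl5 and 57.9% for Tnfrsf12a. Whether the shift set the rank of Cxcl5 was not tested. The summed level of the 41 genes was 803 and 814 CPM in the NMuMG samples and 1108 and 1113 CPM in the shPCBP1 samples. Of these 41 genes, 17 reached 10 CPM on average in each group. Transcripts were counted in bulk, so that a change in RNA per cell and a change in the share of cells that make it cannot be told apart.

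Promoters were read for 43 of the 61 genes from RefSeq (GRCm38.p6, from 250 bases before to 50 bases after the annotated start). The NF-kB motif searched was GGG, any 2 bases, TT, any base and CC, and the STAT motif was TTCNNNGAA, each on both strands. The NF-kB motif lay in the promoters of 10 of the 43 genes (23.3%), against 5.48% of all 27025 genes with a promoter in that table. The STAT motif lay in those of 5 genes (11.6%), against 9.55% of all genes. The 10 genes with an NF-kB match were Ccl9, Ccl20, Csf1, Cxcl1, Cxcl10, Il12rb2, Il16, Il17rc, Il1rn and Tnfrsf9. The STAT matches were in Il12rb2, Tnfrsf18, Tnfrsf1a, Tnfrsf1b and Tnfrsf9. A match is a description of these letters and not of binding.

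The first 7 promoters below are shown as examples with an NF-kB match, and that of Il33 because its level separates the KO groups below. They were chosen with the results known. Il11, which has the largest log2 fold change in shPCBP1, has no match in either of its 2 promoters. They read 5′ to 3′ along the gene, and capitals mark matches to either motif (overlapping matches run together). In Tnfrsf9 the first run of capitals is the STAT motif, and all other runs are the NF-kB motif. The promoter at the upstream start of Il33 holds no match to either motif.

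Cxcl1, chr5:90890995-90891294, plus strand: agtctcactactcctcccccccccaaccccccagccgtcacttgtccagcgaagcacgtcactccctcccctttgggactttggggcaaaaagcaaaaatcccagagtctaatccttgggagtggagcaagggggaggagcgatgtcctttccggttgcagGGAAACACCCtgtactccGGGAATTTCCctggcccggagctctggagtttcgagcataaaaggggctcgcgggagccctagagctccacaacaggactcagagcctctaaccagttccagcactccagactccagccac
Cxcl10, chr5:92348840-92349139, minus strand: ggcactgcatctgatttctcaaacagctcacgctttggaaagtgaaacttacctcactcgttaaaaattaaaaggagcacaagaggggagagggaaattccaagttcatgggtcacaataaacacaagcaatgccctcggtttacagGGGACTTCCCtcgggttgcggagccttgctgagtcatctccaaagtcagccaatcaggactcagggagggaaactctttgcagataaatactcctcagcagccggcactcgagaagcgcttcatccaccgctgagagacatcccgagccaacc
Csf1, chr3:107760420-107760719, minus strand: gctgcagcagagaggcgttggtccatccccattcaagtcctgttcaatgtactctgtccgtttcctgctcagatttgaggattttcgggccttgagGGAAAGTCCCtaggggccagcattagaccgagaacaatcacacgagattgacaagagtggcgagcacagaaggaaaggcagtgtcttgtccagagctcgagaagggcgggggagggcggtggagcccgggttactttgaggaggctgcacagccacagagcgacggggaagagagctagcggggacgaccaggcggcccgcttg
Ccl9, chr11:83578587-83578886, minus strand: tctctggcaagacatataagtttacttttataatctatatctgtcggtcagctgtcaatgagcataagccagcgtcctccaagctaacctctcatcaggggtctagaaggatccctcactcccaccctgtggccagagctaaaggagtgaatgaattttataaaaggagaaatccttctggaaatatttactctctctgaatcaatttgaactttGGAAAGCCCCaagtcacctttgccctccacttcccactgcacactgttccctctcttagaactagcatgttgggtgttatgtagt
Ccl20, chr1:83116516-83116815, plus strand: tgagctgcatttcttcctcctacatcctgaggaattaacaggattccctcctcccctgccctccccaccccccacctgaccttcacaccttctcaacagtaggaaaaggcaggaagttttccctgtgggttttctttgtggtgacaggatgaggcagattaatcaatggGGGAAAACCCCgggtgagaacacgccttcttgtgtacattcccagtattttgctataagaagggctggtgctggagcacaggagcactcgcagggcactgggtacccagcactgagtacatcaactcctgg
Il1rn, chr2:24345121-24345420, plus strand: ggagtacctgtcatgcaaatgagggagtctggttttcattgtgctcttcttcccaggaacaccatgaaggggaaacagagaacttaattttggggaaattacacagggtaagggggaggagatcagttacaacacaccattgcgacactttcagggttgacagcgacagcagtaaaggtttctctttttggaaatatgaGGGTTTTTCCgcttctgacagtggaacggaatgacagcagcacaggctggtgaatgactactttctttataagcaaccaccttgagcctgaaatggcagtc
Tnfrsf9, chr4:150927749-150928048, plus strand: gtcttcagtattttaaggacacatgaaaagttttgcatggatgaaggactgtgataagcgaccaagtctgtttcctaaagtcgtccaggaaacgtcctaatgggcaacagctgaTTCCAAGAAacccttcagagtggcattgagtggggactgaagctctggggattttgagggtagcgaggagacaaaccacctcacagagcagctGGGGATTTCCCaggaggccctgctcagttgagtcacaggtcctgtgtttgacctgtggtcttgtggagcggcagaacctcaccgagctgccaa
Il33, chr19:29924863-29925162, plus strand: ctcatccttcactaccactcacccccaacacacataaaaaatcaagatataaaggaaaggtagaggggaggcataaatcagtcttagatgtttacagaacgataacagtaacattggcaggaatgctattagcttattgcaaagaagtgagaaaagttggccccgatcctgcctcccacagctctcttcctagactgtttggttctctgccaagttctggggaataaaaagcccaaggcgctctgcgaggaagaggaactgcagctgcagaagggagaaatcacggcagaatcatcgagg

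Knockdown of PCBP1 was accompanied by higher Ccl2, Ccl7, Ccl9, Cxcl17, Csf1 and Il11, and lower Il33, Cx3cl1 and Tnfrsf11a. Fold changes are differences of log2(CPM + 0.1), which makes those of low genes too small. With limma, 33 of the 41 genes passed a Benjamini-Hochberg adjusted p of 0.07, and of these 19 were higher and 14 lower in shPCBP1. Of all 11384 genes tested, 80.1% passed (42.1% higher and 38.0% lower), so the share of 80.5% is near that of all genes. The samples of each group lay close together, and nothing in the labels says that they were separate cultures, so that p-values measure the spread between these samples, which may be technical. A change of at least 1 on the log2 scale with an adjusted p under 0.07 was seen in 18 of the 41 genes (43.9%), against 14.6% of all genes tested. The median log2 fold change of the 41 genes was 0.22, beside 0.025 for all genes. Ccl7, Cxcl10 and Il11 passed the filter on low values only through shPCBP1, and Tnfrsf18 only through NMuMG.

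Of the 12 chemokines tested, 7 rose, 1 fell and 4 did not pass. Ccl2, which recruits monocytes through Ccr2, was at 27.9 and 27.4 CPM in NMuMG and at 104 and 99.0 CPM in shPCBP1. Its log2 fold change was 1.87 (standard error, SE, 0.0329, limma adjusted p = 4.05e-12). Ccl7, another Ccr2 ligand that lies next to Ccl2 on chromosome 11, was at 0.0709 and 0.113 CPM in NMuMG and at 1.86 and 2.40 CPM in shPCBP1 (log2 fold change 3.54, limma adjusted p = 2.46e-08). Ccl7 was thus near 0 in NMuMG, where Ccl2 was already expressed, and both were several times higher in each shPCBP1 sample.

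Cxcl17, a chemokine of mucosal epithelia, was at 0.832 and 0.792 CPM in NMuMG and at 10.6 and 9.50 CPM in shPCBP1, a log2 fold change of 3.47 (SE 0.113). Ccl9, a mouse ligand of Ccr1, was at 0.885 and 0.849 CPM and then at 6.99 and 7.10 CPM (log2 fold change 2.89). Cxcl1, a neutrophil chemokine with 2 NF-kB matches in the promoter shown above, was at 13.4 and 12.8 CPM in NMuMG and at 28.5 and 26.8 CPM in shPCBP1 (log2 fold change 1.07). These 3 chemokines did not overlap between the groups, as was so for 37 of the 41 genes (90.2%). The share of all genes without overlap is not given here. Cxcl5, which shares the receptor Cxcr2 with Cxcl1, was at 134 and 127 CPM in NMuMG and at 135 in both shPCBP1 samples, and did not pass (log2 fold change 0.05, limma adjusted p = 0.119). Cx3cl1, a membrane-bound chemokine, was the chemokine that fell, from 16.9 and 17.9 CPM to 6.52 and 7.06 CPM (log2 fold change -1.35, SE 0.0673).

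Cxcl10, an interferon-induced chemokine, was low in both groups (0.301 and 0.283 CPM against 0.842 and 0.647 CPM, log2 fold change 1.1), and Ccl25, the ligand of Ccr9, rose by 0.22, a call lost in 3 of the 4 fits that left out a sample (adjusted p of up to 0.329 from limma). Ccl20, Ccl27a and Ccl28 did not pass, with log2 fold changes of 0.25, 0.03 and -0.08. The scavenging receptor Ackr3, the one chemokine receptor tested in dataset 2, was at 1.5 and 1.58 CPM in NMuMG and at 0.430 and 0.573 CPM in shPCBP1 (log2 fold change -1.46).

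Csf1 was at 69.5 and 66.7 CPM in NMuMG and at 156 and 160 CPM in shPCBP1 (log2 fold change 1.21, SE 0.0276, limma adjusted p = 2.34e-11). Il34, the other ligand of the Csf1 receptor, rose from 0.797 and 0.830 CPM to 1.36 and 1.11 CPM. The receptor gene Csf1r itself stayed near 1 CPM, at 1.13 and 1.28 CPM in NMuMG and 1.39 and 1.02 CPM in shPCBP1 (log2 fold change -0.02, SE 0.170), and its samples overlapped.

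Il11 had the largest log2 fold change of the 41 genes. This cytokine of the interleukin-6 family was at 0.124 and 0.170 CPM in NMuMG and at 6.36 and 6.62 CPM in shPCBP1, a log2 fold change of 4.74 (SE 0.152, limma adjusted p = 2.99e-10). Its receptor chain Il11ra1, which is not one of the 61 genes, was at 2.37 and 2.30 CPM in NMuMG and at 1.95 and 1.68 CPM in shPCBP1. Il6st, the signalling chain that Il11 shares with LIFR ligands and which was added after its values were seen, was at 59.9 and 58.7 CPM and at 84.5 and 82.3 CPM. Il11 passed the filter on low values only through shPCBP1, and its log2 fold change depends on the added 0.1 CPM. The ligand and its receptor chains are therefore not ranked by their change.

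Il1rn, the antagonist that blocks the interleukin-1 receptor, was at 0.726 and 0.340 CPM in NMuMG and at 5.97 and 4.90 CPM in shPCBP1 (log2 fold change 3.19, SE 0.244). The receptor Il1r1 rose less, from 13.3 and 12.2 CPM to 15.0 and 15.3 CPM. Il33 took the opposite direction and was at 95.2 and 95.8 CPM in NMuMG and at 40.5 and 40.0 CPM in shPCBP1 (log2 fold change -1.25, SE 0.0274, limma adjusted p = 1.82e-11). Its receptor gene Il1rl1 was below 1 CPM in all 4 samples and did not pass. Of the interleukin-18 genes, the receptor accessory chain Il18rap fell by 1.00 and the soluble inhibitor Il18bp fell by 0.54 on the log2 scale.

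Of the 8 interleukin receptor chains tested, 4 rose, 1 fell and 3 did not pass. Il13ra1, a receptor chain for interleukin-13, was at 3.40 and 3.13 CPM in NMuMG and at 14.5 and 15.5 CPM in shPCBP1 (log2 fold change 2.17). Il17ra, the chain common to interleukin-17 receptors, rose by 0.40 and its partner Il17rc by 0.29. Il17rc no longer passed in 3 of the 4 fits that left out a sample, with an adjusted p of up to 0.159 from limma.

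All 3 TNF family ligands tested fell, Tnfsf13 by 0.93, Tnfsf9 by 0.59 and Tnfsf12 by 0.45 on the log2 scale. Tnfsf12 and Tnfsf13 are neighbours on chromosome 11 and their reads may be shared. Of the 10 TNF family receptors, 4 rose and 6 fell. Tnfrsf1b, the TNF receptor that lacks a death domain, was at 9.89 and 8.99 CPM in NMuMG and at 30.4 and 29.3 CPM in shPCBP1 (log2 fold change 1.65, SE 0.0572), whereas Tnfrsf1a, the death domain receptor of TNF, fell by 0.21. Tnf itself was at 0.0532 CPM or less in every dataset 2 sample.

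Tnfrsf12a, the receptor of the ligand Tnfsf12, was at 109 and 102 CPM in NMuMG and at 234 and 236 CPM in shPCBP1 (log2 fold change 1.16). Tnfrsf22 and Tnfrsf23, decoy receptors encoded side by side on chromosome 7, rose by 0.66 and 1.04. Their neighbour Tnfrsf26 fell by 0.57, and reads of these close paralogs could be split between them in counting. Tnfrsf11a, which encodes RANK, was at 11.2 and 12.7 CPM in NMuMG and at 2.46 and 2.81 CPM in shPCBP1, and its log2 fold change of -2.14 (SE 0.0993, limma adjusted p = 5.47e-09) was the largest decrease. Tnfrsf18, a receptor known from T cells, was at 1.69 and 2.32 CPM and at 0.520 and 0.404 CPM (log2 fold change -1.90).

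**Figure D1:**
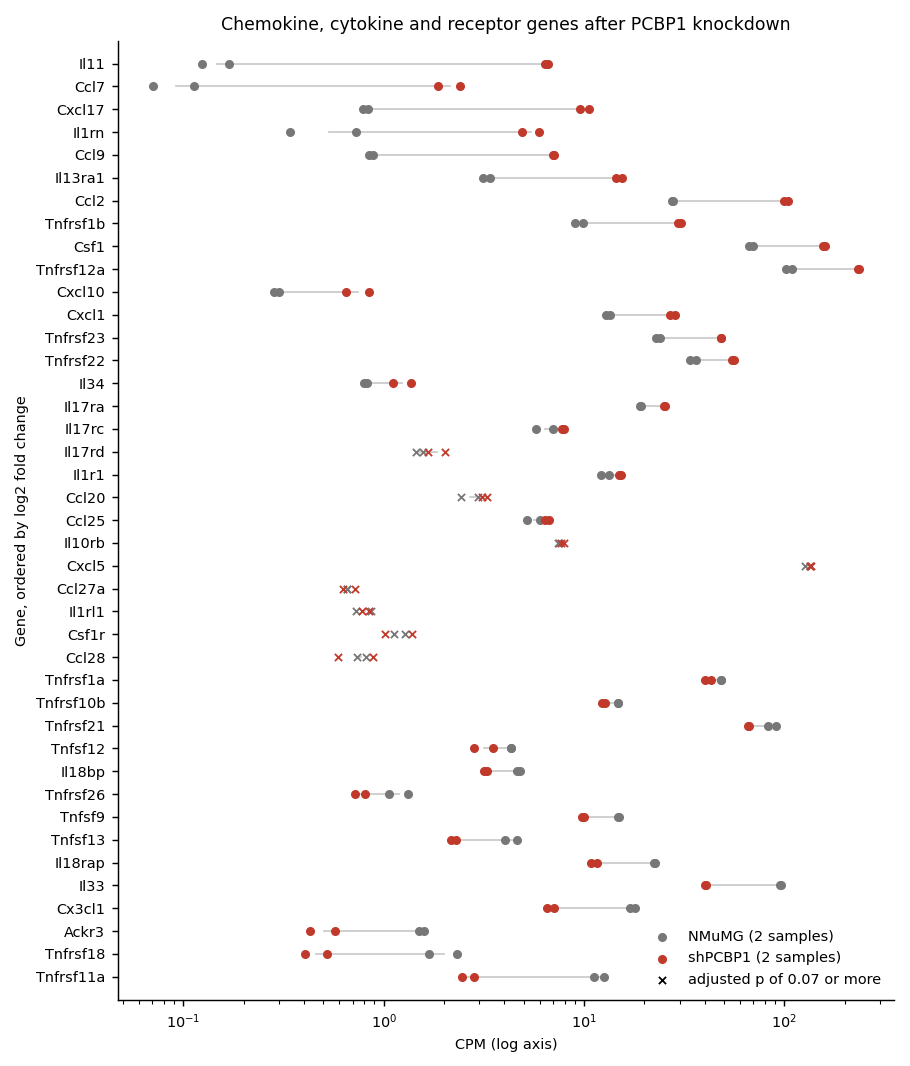
CPM on a log axis of the 41 genes in the 2 NMuMG samples (grey) and the 2 shPCBP1 samples (red) of dataset 2, ordered by log2 fold change, with a line between the group means and crosses for the 8 genes that did not pass an adjusted p of 0.07. Il11 and Ccl7 at the top have the widest gaps, Tnfrsf11a at the bottom has the largest decrease, and the samples of one group lie close together for most genes.

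Of the 10 genes with an NF-kB match in the promoter, 7 were tested in dataset 2 and 6 of them rose, with a median log2 fold change of 1.1, where 42.1% of all genes were higher. These were Ccl9, Csf1, Cxcl1, Cxcl10, Il1rn and Il17rc, while Ccl20 did not pass. Cxcl10 passed the filter on low values only through shPCBP1, and Il17rc passed in 1 of the 4 fits that left out a sample. A link between the motif and the change was not tested. Of the 5 genes with a STAT match, 3 were tested, 1 rose (Tnfrsf1b) and 2 fell (Tnfrsf18 and Tnfrsf1a). In dataset 1, limma called 2 of the 5 lower in LIFR KO (Tnfrsf1a and Tnfrsf1b), beside 5.55% of all genes, and none in FAM3C KO. Their median log2 fold changes were -0.36 and 0.12. Between the KO groups 1 was called, Tnfrsf1b, higher in FAM3C KO, as were 6.83% of all genes. These dataset 1 calls were lost after a correction of each library for GC content. Of the 10 genes with an NF-kB match, 1 was called in LIFR KO (Il17rc, lower), where 6.47% of all genes were called. That call was lost after the GC correction (log2 fold change -0.30). In FAM3C KO limma called none of the 10, beside 0.309% of all genes, and their median log2 fold change was 0.22. Ccl9, Ccl20 and Tnfrsf9 had an unadjusted p under 0.05 there, as did 10.2% of all genes. Tnfrsf9 passed the filter on low values only through FAM3C KO. A list of 43 genes of NF-kB and of interleukin-1 and TNF receptor signalling was examined beside the genes with a match. In shPCBP1, 22 of the 42 that could be tested rose, 13 fell and 7 did not pass, with a median log2 fold change of 0.19, beside the 42.1% of all genes that were higher and the 38.0% that were lower. Irak3 was at 0.0001 CPM, which stands for 0, in both NMuMG samples and at 1.63 and 1.94 CPM in shPCBP1. It passed the filter on low values only through shPCBP1, and its log2 fold change of 4.23 depends on the added 0.1 CPM. The genes that rose included Irak3 and Sigirr (2.74), which restrain interleukin-1 receptor signalling, and the NF-kB inhibitor Nfkbia (1.32). They also included the activating kinases Map3k14 (1.08) and Map3k7 (1.00), the adaptor Traf3 (0.72) and the NF-kB subunit Nfkb2 (0.55). Those that fell included the kinase Ikbke (-1.41), Birc2 (-0.63) and the NF-kB subunit Nfkb1 (-0.32).

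In the FAM3C KO clones, Il33 was the one gene of the 60 that passed the adjusted p of 0.07, and it was lower than in the shPCBP1 lines. Across all 12621 genes tested, 0.309% passed. The groups did not overlap in 14 of the 60 genes (23.3%), 8 higher and 6 lower in FAM3C KO, against 22.7% of all genes (10.1% higher and 12.5% lower). The median log2 fold change of the 60 genes was -0.026, beside -0.014 for all genes, and 13 of the 60 (21.7%) had an unadjusted p under 0.05, against 10.2% of all genes. The comparisons of FAM3C KO and of LIFR KO share the 4 shPCBP1 lines as controls, so that their values are given side by side and are not independent. Tnfrsf9 passed the filter on low values only through FAM3C KO and Cxcl15 only through shPCBP1.

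The Il33 level was 41.3 CPM in unaltered shPCBP1 cells and 47.3, 43.6 and 53.1 CPM in CT clones 1 to 3. FAM3C KO clones 1 to 3 had 23.8, 20.5 and 25.9 CPM, and LIFR KO clones 1 to 3 had 65.7, 93.1 and 74.7 CPM. The 3 groups did not overlap, with every FAM3C KO clone below and every LIFR KO clone above the shPCBP1 lines, and the double KO was at 28.2 CPM.

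Against shPCBP1, the log2 fold change of Il33 was -0.98 in FAM3C KO (SE 0.143, limma adjusted p = 0.0328) and 0.74 in LIFR KO (SE 0.143, limma adjusted p = 0.0382). The exact two-sided permutation test gave p = 0.0286 in each comparison, the smallest that 4 lines against 3 allow. That p restates the lack of overlap and is no further support. Tested directly, FAM3C KO and LIFR KO differed by -1.72 (SE 0.153, limma adjusted p = 0.00479). That difference passed in each of the 10 fits that left out 1 line, with a log2 difference between -1.84 and -1.58, and with clone 1 as the only LIFR KO library it was -1.49 (limma adjusted p = 0.00368). With the 2 KO groups fitted alone it did not pass (limma adjusted p = 0.176). The calls against shPCBP1 were lost in more of these fits. The FAM3C KO call was lost without any 1 of the 3 FAM3C KO clones or any 1 of CT clones 1 to 3 (adjusted p of up to 0.139 from limma). The LIFR KO call was lost without LIFR KO clone 2 or any 1 of the 4 shPCBP1 lines (up to 0.125), and with LIFR KO clone 1 alone (0.51, limma adjusted p = 0.203).

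**Figure D2:**
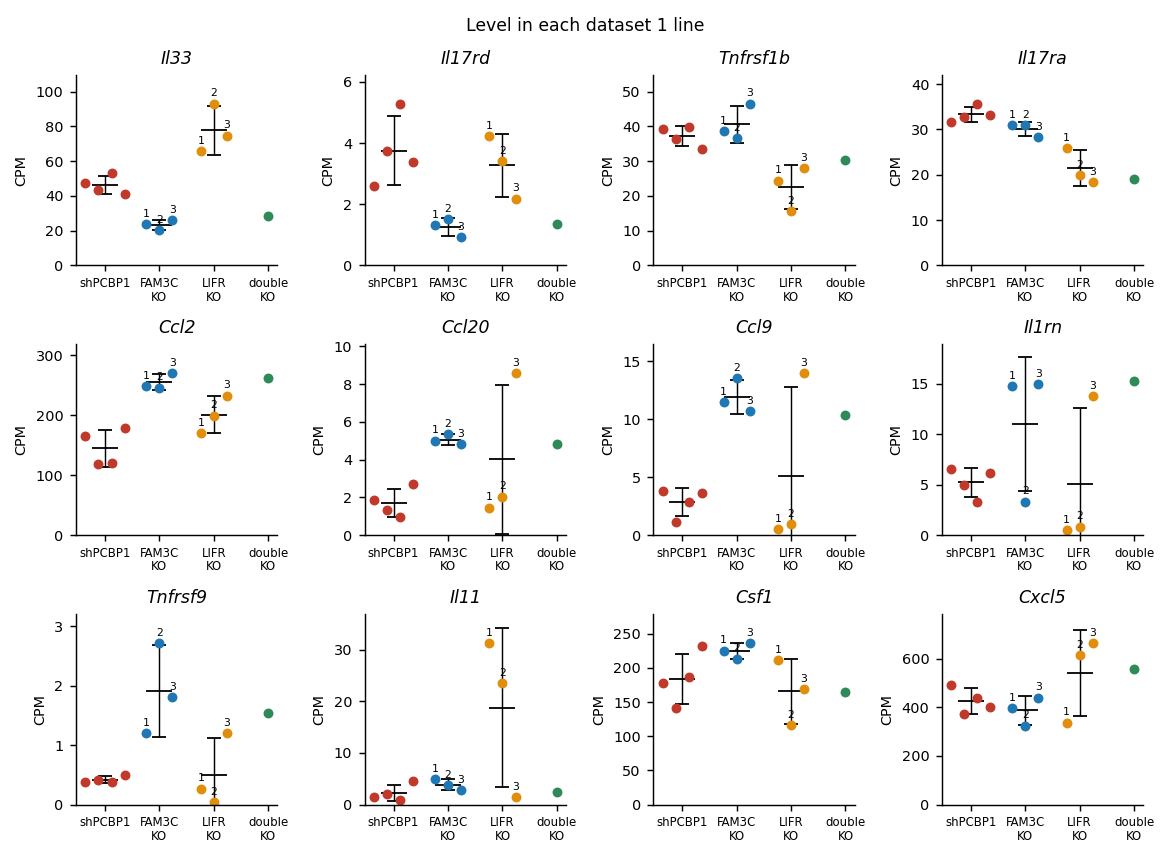
CPM of 12 genes in each line of dataset 1 (points, with KO clone numbers above them), with the mean and SD of each group with more than 1 line as a black dash and bars, cut at 0 where the SD exceeds the mean. Il33 separates the 3 groups (20.5 to 25.9, 41.3 to 53.1 and 65.7 to 93.1 CPM), while for Ccl9 and Il1rn LIFR KO clone 3 lies far from LIFR KO clones 1 and 2.

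Il17rd, a receptor chain also known to dampen fibroblast growth factor signalling, was at 3.37 CPM in unaltered shPCBP1 cells, at 2.60, 3.76 and 5.29 CPM in CT clones 1 to 3, and at 1.33, 1.52 and 0.922 CPM in FAM3C KO clones 1 to 3. The log2 fold change in FAM3C KO was -1.49 (SE 0.299), and the groups did not overlap, as in 22.7% of all genes. The exact two-sided permutation test gave p = 0.0286, the smallest possible with these numbers of lines. That p restates the lack of overlap and is no further support. The adjusted p from limma was 0.0968. LIFR KO clones 1 to 3 had 4.24, 3.41 and 2.19 CPM, each above the FAM3C KO clones, and the difference between the KO groups was -1.29 (limma adjusted p = 0.0481). With LIFR KO clone 1 alone it was -1.70 (limma adjusted p = 0.0423), and it was lost without any 1 of the FAM3C KO clones, LIFR KO clone 2, CT clone 2 or the unaltered line (adjusted p of up to 0.171 from limma). The double KO was at 1.36 CPM.

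Ccl2, Ccl7 and Ccl9, which rose with the PCBP1 knockdown, were higher again in every FAM3C KO clone than in the shPCBP1 lines, without passing the adjusted threshold. Ccl2 was at 178 CPM in unaltered shPCBP1 cells, at 165, 118 and 119 CPM in CT clones 1 to 3, and at 248, 246 and 270 CPM in FAM3C KO clones 1 to 3. Its log2 fold change was 0.83 (SE 0.166, limma adjusted p = 0.0968). The exact permutation test gave p = 0.0286, the smallest possible with these numbers of lines, which restates that the lines do not overlap. LIFR KO clones 1 to 3 had 171, 199 and 233 CPM, and the double KO was at 262 CPM.

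Ccl7 was at 2.66, 4.92 and 2.54 CPM in FAM3C KO clones 1 to 3 and at 0.485 to 1.85 CPM in the shPCBP1 lines (log2 fold change 1.30, limma adjusted p = 0.281). Ccl9 was at 3.62 CPM in the unaltered line, at 3.84, 1.09 and 2.85 CPM in CT clones 1 to 3, and at 11.5, 13.6 and 10.7 CPM in FAM3C KO clones 1 to 3 (log2 fold change 2.16, SE 0.896, limma adjusted p = 0.433). Every FAM3C KO clone was above every shPCBP1 line for both genes. LIFR KO clones 1 to 3 had 0.483, 0.915 and 14 CPM of Ccl9, so that clone 3 lay with the FAM3C KO clones and clones 1 and 2 below all shPCBP1 lines. The double KO was at 10.4 CPM.

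LIFR KO clone 3 also lay apart from clones 1 and 2 for Ccl20, Tnfrsf9 and Il1rn. Ccl20, the ligand of Ccr6, was at 5.0, 5.36 and 4.80 CPM in FAM3C KO, at 0.962 to 2.68 CPM in shPCBP1, against 1.45, 2.04 and 8.58 CPM across LIFR KO clones 1 to 3. Tnfrsf9, a costimulatory receptor best known from T cells, was at 1.20, 2.72 and 1.81 CPM in FAM3C KO, at 0.378 to 0.499 CPM in shPCBP1, against 0.268, 0.0416 and 1.20 CPM across LIFR KO clones 1 to 3, the second of these being the lowest value of its library, worth about 1 read, which the table may also use for none. Il1rn was at 14.7, 3.32 and 14.9 CPM in FAM3C KO, at 3.26 to 6.57 CPM in shPCBP1, against 0.483, 0.832 and 13.8 CPM in LIFR KO. The double KO was at 4.82 CPM for Ccl20, 1.55 CPM for Tnfrsf9 and 15.3 CPM for Il1rn. Promoters with an NF-kB match are shown above for these 3 genes and for Ccl9, but the same holds of Csf1 and Cxcl1, for which LIFR KO clone 3 did not lie apart.

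The spread that LIFR KO clone 3 adds enters the FAM3C KO test, because the 3 groups share 1 estimate of it. Without LIFR KO clone 3, 6 of the 60 genes passed in FAM3C KO: Ccl2 (limma adjusted p = 0.0318), Ccl9 (0.0303), Ccl20 (0.0343) and Tnfrsf9 (0.047) higher, and Il33 and Il17rd (0.0275) lower. Over all genes, 359 of 12633 passed in that fit. With FAM3C KO and shPCBP1 fitted alone, 7 passed, 4 of them higher and 3 lower, beside 1048 of all 12644 genes. The added gene was Cx3cl1 (-0.68, limma adjusted p = 0.0686), which was at 7.57, 8.84 and 7.26 CPM in FAM3C KO and at 8.98 to 15.2 CPM in shPCBP1.

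FAM3C KO clones did not overlap the shPCBP1 lines for some further genes. Il34 was at 2.44, 1.72 and 1.65 CPM in FAM3C KO and at 0.661 to 1.5 CPM in shPCBP1 (log2 fold change 0.86), and Il18rap had a log2 fold change of 0.68 and the scavenging receptor Ackr4 of 0.58. Tnfrsf21, Tnfrsf12a and Il17ra were lower, with log2 fold changes of -0.34, -0.30 and -0.15. Some genes that rose with the PCBP1 knockdown overlapped between FAM3C KO and shPCBP1: Cxcl1 was at 76.8 to 106 CPM in FAM3C KO and at 95.6 to 122 CPM in shPCBP1, Il13ra1 at 9.84 to 14.8 CPM and at 14.2 to 20.2 CPM, and Cxcl17 at 1.24 to 9.41 CPM and at 2.92 to 6.05 CPM. None of the 43 NF-kB and receptor signalling genes passed limma's test in FAM3C KO, and 5 had an unadjusted p under 0.05 (10.2% of all genes did).

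**Figure D3:**
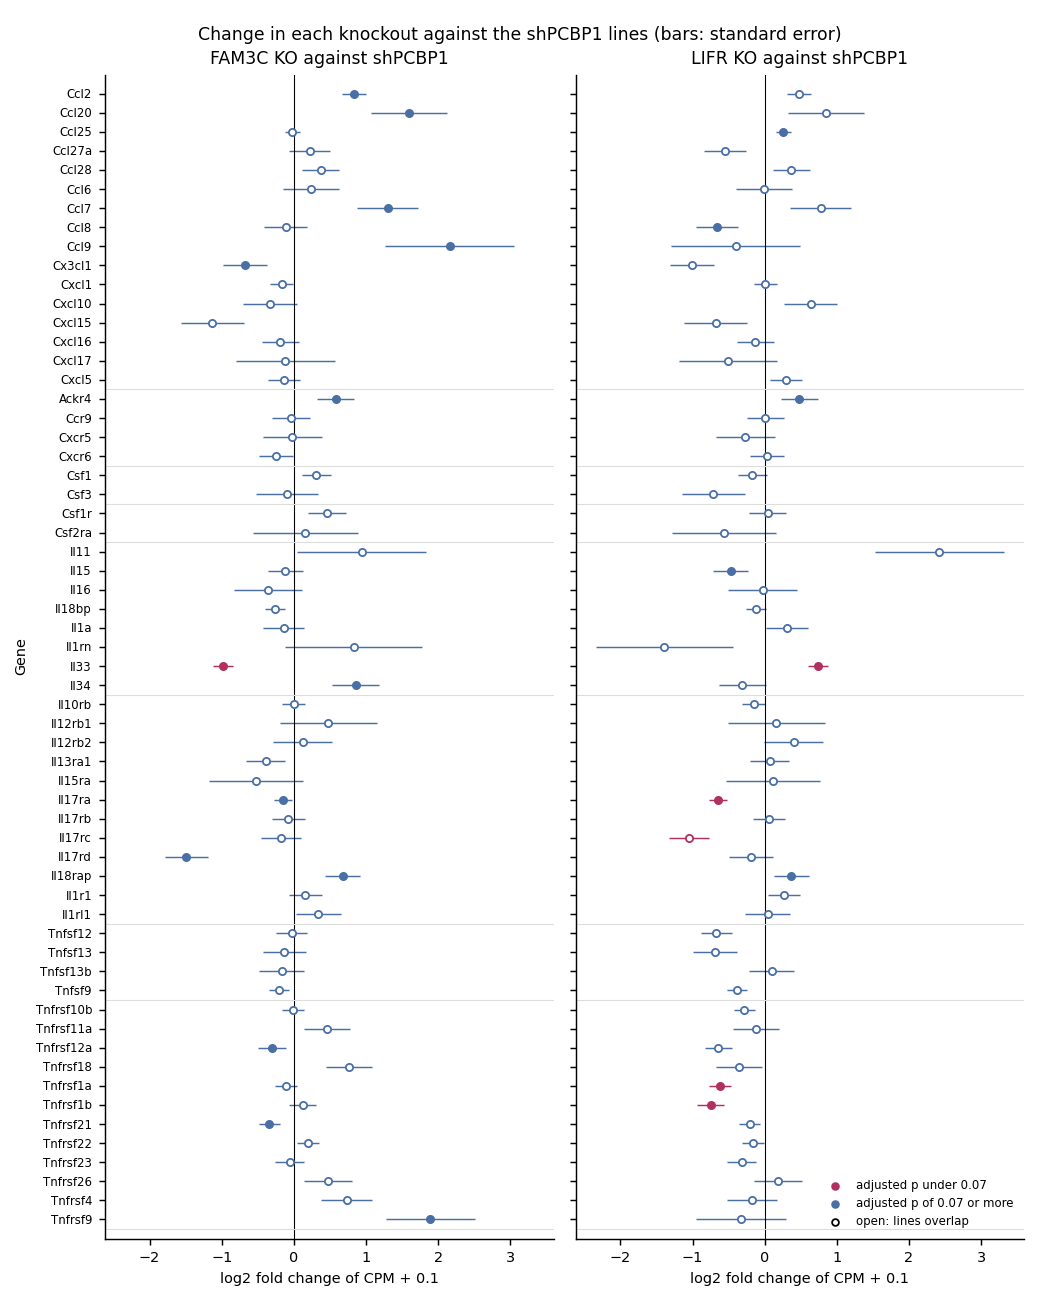
Log2 fold change of CPM + 0.1, with its standard error, of the 60 dataset 1 genes in FAM3C KO (left) and in LIFR KO (right) against the same 4 shPCBP1 lines, grouped by family (chemokines, chemokine receptors, colony-stimulating factors, their receptors, interleukins, interleukin receptors, TNF ligands and TNF receptors, from top to bottom). Filled points are genes whose lines do not overlap, and red marks an adjusted p under 0.07, reached by Il33 in FAM3C KO and by Il33, Il17ra, Il17rc, Tnfrsf1a and Tnfrsf1b in LIFR KO.

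In the LIFR KO clones, 5 of the 60 genes passed, 1 higher and 4 lower, where 6.47% of all 12621 genes passed (0.911% higher and 5.55% lower). The gene that was higher was Il33, and the 4 that were lower were receptor chains of interleukin-17 and TNF. The groups did not overlap in 9 genes (15.0%), against 17.2% of all genes. The median log2 fold change was -0.143 for the 60 genes and -0.164 for all genes. Median-ratio rescaling moved the median of all genes to -0.003 and the split of all calls from 115 higher and 701 lower to 190 higher and 288 lower, and left 2 of the 5 genes, Il33 and Il17ra. Cxcl10 and Tnfrsf9 passed the filter on low values only through LIFR KO, and Ccl8 and Cxcl15 only through shPCBP1.

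Il17ra was at 33.2 CPM in unaltered shPCBP1 cells, at 31.6, 32.8 and 35.7 CPM in CT clones 1 to 3, and at 25.9, 19.9 and 18.4 CPM across LIFR KO clones 1 to 3 (log2 fold change -0.65, SE 0.124, limma adjusted p = 0.038). Il17rc was at 12.5 to 17.2 CPM in shPCBP1, against 12.8, 4.91 and 6.35 CPM in LIFR KO (log2 fold change -1.05, limma adjusted p = 0.061), with clone 1 inside the range of the shPCBP1 lines. Both chains form the receptor of interleukin-17A.

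Tnfrsf1b was at 33.5 CPM in the unaltered line, at 39.2, 36.4 and 39.7 CPM in CT clones 1 to 3, and at 24.4, 15.7 and 27.9 CPM across LIFR KO clones 1 to 3 (log2 fold change -0.75, SE 0.182, limma adjusted p = 0.0528). Tnfrsf1a was at 52.2 to 67.4 CPM in shPCBP1, against 52.0, 34.7 and 35.5 CPM in LIFR KO (log2 fold change -0.62, limma adjusted p = 0.055). For Tnfrsf1b, Tnfrsf1a and Il17ra, the LIFR KO clones lay below every shPCBP1 line. With limma, no gene of the 60 passed without LIFR KO clone 2 or without any 1 of the shPCBP1 lines (10 to 13 had an unadjusted p under 0.05). Without LIFR KO clone 1, 16 of the 60 passed, beside 7234 of all 12612 genes. None passed with LIFR KO and shPCBP1 fitted alone (12 at an unadjusted p under 0.05).

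The 4 genes that were lower have a GC content of 52.6% (Il17ra), 53.7% (Tnfrsf1b), 55.9% (Tnfrsf1a) and 62.0% (Il17rc), and Il33 has 42.5%. Of the 25 genes with a GC content of 50% or more, 21 were lower in LIFR KO, with a median log2 fold change of -0.38 (-0.41 over all 6400 such genes), while 14 of the 35 others were lower, with a median of 0.04 (0.11 over all 6203 such genes). After a correction of each library for GC content, these medians were 0.02 and -0.04, and none of the 60 genes passed limma's test (7 at an unadjusted p under 0.05), with log2 fold changes of -0.34 for Il17ra, -0.37 for Tnfrsf1b, -0.15 for Tnfrsf1a, -0.30 for Il17rc and 0.54 for Il33 (adjusted p of 0.0884, 0.299, 0.321, 0.268 and 0.105 from limma). In LIFR KO clone 1 alone, which lacked the shift, the values were -0.36, -0.60, -0.24, -0.27 and 0.51, and these 5 did not pass. The median of the 60 genes, of which 59 were tested, was then -0.12. No shPCBP1 library had the shift, so that it cannot be told apart from the LIFR KO in clones 2 and 3.

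**Figure D4:**
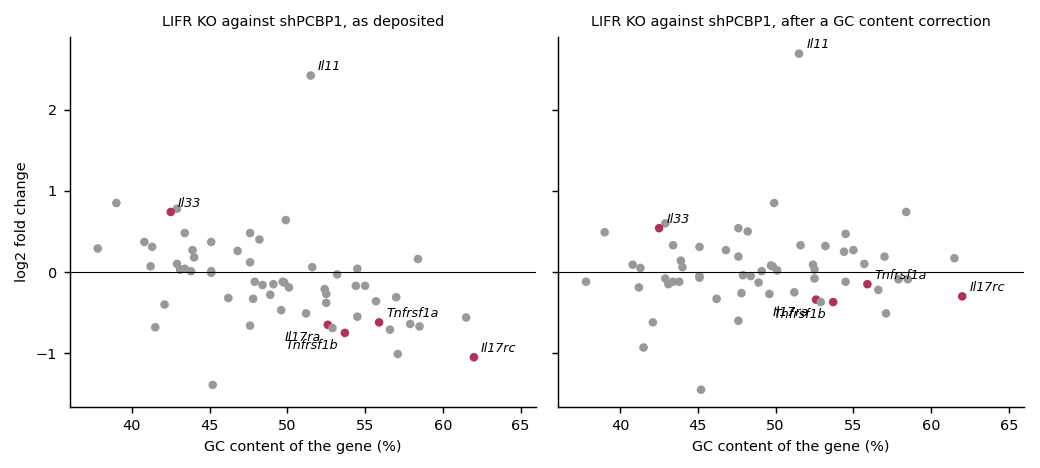
Log2 fold change of the 60 genes in LIFR KO against shPCBP1 by the GC content of the gene (percent of bases), from the values as deposited (left) and after a correction of each library for GC content (right), with the 5 genes past an adjusted p of 0.07 on the left in red. On the left 21 of the 25 genes at 50% or more lie below 0, and on the right the medians of both GC classes lie near 0 (0.02 and -0.04), while Il11 keeps the highest value.

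Il11 had the largest log2 fold change in LIFR KO. It was at 31.4, 23.5 and 1.5 CPM across LIFR KO clones 1 to 3, at 4.49 CPM in unaltered shPCBP1 cells and 1.47, 1.98 and 0.928 CPM in CT clones 1 to 3 (log2 fold change 2.42, SE 0.897, limma adjusted p = 0.101). Clones 1 and 2 were above all other lines, and clone 3 was within the range of the shPCBP1 lines. FAM3C KO clones 1 to 3 were at 4.92, 3.72 and 2.77 CPM and the double KO at 2.44 CPM. With clone 1 as the only LIFR KO library, Il11 was the 1 gene that passed (log2 fold change 3.99, limma adjusted p = 0.0368), and without LIFR KO clone 3 it passed with 3.78 (limma adjusted p = 0.00714), beside Il1rn (-2.80, limma adjusted p = 0.0283) and Ccl9 (-1.80, limma adjusted p = 0.0555).

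The chemokines, chemokine receptors, colony-stimulating factors and TNF family ligands gave no call in LIFR KO with limma, and 7 of their 28 genes had an unadjusted p under 0.05. This count includes the receptors of the colony-stimulating factors. Of the 60 genes, 14 (23.3%) had such a p, and the share of all genes at that p is not given here. Csf1 was at 211, 117 and 169 CPM across LIFR KO clones 1 to 3 and at 142 to 231 CPM in shPCBP1 (log2 fold change -0.17, limma adjusted p = 0.544), and its log2 fold change turned to 0.25 after GC correction and to 0.22 with clone 1 alone. Cxcl5, the most abundant of the 60 genes in CPM, was at 338, 616 and 666 CPM in LIFR KO, at 398, 325 and 440 CPM in FAM3C KO and at 371 to 494 CPM in shPCBP1, and overlapped between the groups in each comparison with shPCBP1. Of the NF-kB and receptor signalling genes, 1 of 43 was called higher and 4 lower in LIFR KO. Of all genes, 0.911% were called higher and 5.55% lower. These calls were made without the GC correction.

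Tested directly, FAM3C KO and LIFR KO differed in 4 of the 60 genes, where 8.28% of all genes passed (6.83% higher and 1.45% lower in FAM3C KO). Il33 and Il17rd, given above, were lower in FAM3C KO. Tnfrsf1b and Il17ra were higher in FAM3C KO, by 0.87 (SE 0.195, limma adjusted p = 0.042) and 0.50 (SE 0.133, limma adjusted p = 0.0571). Tnfrsf1b was at 38.5, 36.6 and 46.5 CPM and Il17ra at 30.9, 30.9 and 28.3 CPM in FAM3C KO clones 1 to 3, and no FAM3C KO clone overlapped a LIFR KO clone for either gene. The Tnfrsf1b call was lost without any 1 of the FAM3C KO clones, LIFR KO clone 2 or CT clone 2 (adjusted p of up to 0.146 from limma), and the Il17ra call in all fits that left out 1 line but the one without LIFR KO clone 1 (up to 0.205). Median-ratio rescaling moved the median of all genes from 0.144 to 0.003 and the split of all calls from 862 higher and 183 lower to 494 and 324, and with it Tnfrsf1b differed by 0.73 (limma adjusted p = 0.0575) and Il17ra by 0.36 (0.0794). With clone 1 alone Il17ra differed by 0.21 (limma adjusted p = 0.278).

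With clone 1 as the only LIFR KO library, 9 of the 59 genes tested differed between the KO groups, and 1195 of all 12651 genes did. Ccl9 (4.36), Il1rn (3.97), Tnfrsf9 (2.37), Ccl20 (1.73), Tnfrsf11a (1.29) and Tnfrsf1b (0.72) were higher in FAM3C KO, and Il11 (-3.05), Il17rd (-1.70) and Il33 (-1.49) were lower, all as log2 differences. This fit assumes that the lone library varies like the other groups. Il33, Il17rd and Tnfrsf1b passed both in this fit and with all 3 LIFR KO clones.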

How the data were processed

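RNA was measured by RNA-Seq in 15 samples of NMuMG-derived mouse cell lines, 11 in dataset 1 and 4 in dataset 2, with rRNA-depleted directional libraries. Per the paper's methods, the authors trimmed the reads, aligned them to GRCm38 (mm10) with Bowtie2 in Partek Flow and ran DESeq2. The authors deposited CPM per sample, in which a small number stands for 0. For dataset 2 they also deposited group means and a fold change ratio between them, which were not used. The counting setting for strand is not given in the sources used here. Of the low values (up to 20 reads), 90.5% to 92.8% in dataset 1 and 93.7% to 94.2% in dataset 2 were whole multiples of 1 read within 0.1, under the 95% set for recovering reads. Count tests were therefore left out.

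The members, the gene lists and the tests were chosen with earlier results of these data known. Values were transformed to log2(CPM + 0.1) for genes that averaged 0.5 CPM or more and fitted with limma 3.58.1 (mean-variance trend, R 4.3.3), the 10 lines of the 3 dataset 1 groups together. The threshold was a Benjamini-Hochberg adjusted p under 0.07 over all genes, as in the study. Groups compared share replicate numbers that do not pair them, so no block was used. Single genes of the KO comparisons were also tested by exact permutation. The procedure was tested on simulated data. Genes were named by a rule: up to 8 each way with the largest change past the threshold, up to 5 each way among those with no overlap between lines, and their partners. Coordinates, transcript lengths and GC content (longest coding transcript) were taken from GENCODE M21 (GRCm38) by gene identifier, which it held for 13870 of 13893 dataset 1 genes. Gene starts equalled it for 14295 of 14821 genes of dataset 2 but for only 302 of 13870 of dataset 1. The gene models used for dataset 1 may therefore differ from those behind its GC content and levels per kilobase given here. Figures were drawn with matplotlib 3.10.9. The double KO, a single sample, entered no fit.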

Additional observations from a re-analysis of the deposited data

Results flagged for a closer look

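Among 35 named genes, Il18rap in the shPCBP1 lines had a line far from the others: CT clone 2 was at 8.97 CPM and the other 3 lines at 13.9 to 14.6 CPM, a gap of 0.867 of the group's range. Chance gives such a gap in about 1 of 20 groups, and this was 1 of 35.

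The change against shPCBP1 differed between FAM3C KO and LIFR KO in 4 genes, by the direct test of limma: Il33 (-1.72), Il17rd (-1.29), Tnfrsf1b (0.87) and Il17ra (0.50), as log2 differences of FAM3C KO from LIFR KO. Il33 is the one of them that passed in each comparison with shPCBP1 as well, with opposite signs. The GC shift in the libraries of LIFR KO clones 2 and 3 accompanied these differences. After the GC correction Il33 differed by -1.55 (adjusted p = 0.0029 from limma), Il17rd by -1.45 (0.0808), Tnfrsf1b by 0.54 (0.146) and Il17ra by 0.24 (0.131).

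In the double KO, which entered no fit, 3 named genes were more than 2 times as high as in the highest shPCBP1 line: Ccl9 at 10.4 CPM (highest shPCBP1 line 3.84), Il1rn at 15.3 CPM (6.57) and Tnfrsf9 at 1.55 CPM (0.499). It is 1 library, it carried the GC shift, and its differences were not tested.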

How the results depend on the processing

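In dataset 2 the number of genes past the threshold lay between 31 and 34 under the rescaling, pseudocount, filter, GC correction, threshold and replicate block alternatives, was 22 where the fold change also had to reach 1.5, and lay between 30 and 33 when 1 sample was left out. In FAM3C KO against shPCBP1 the count of 1 became 7 with the 2 groups fitted alone, 3 after GC correction, 0 with the replicate block and 0 with both, and 0 to 6 when 1 line was left out (6 without LIFR KO clone 3, 3 without LIFR KO clone 1, and 0 without any 1 of the FAM3C KO clones or CT clones 1 to 3). In LIFR KO against shPCBP1 the count of 5 became 0 with the 2 groups fitted alone, after GC correction, with the replicate block and with both, 1 with LIFR KO clone 1 alone, 2 after median-ratio rescaling and 2 at an adjusted p under 0.05. It was 0 to 16 when 1 line was left out: 16 without LIFR KO clone 1, 2 without FAM3C KO clone 1 or 3, and 0 without LIFR KO clone 2 or any 1 of the shPCBP1 lines. In FAM3C KO against LIFR KO the count of 4 became 0 with the 2 groups fitted alone, with the replicate block and with the block and GC correction, 1 after GC correction, 7 with a pseudocount of 1 CPM and 9 with LIFR KO clone 1 alone. It was 1 to 20 when 1 line was left out (20 without LIFR KO clone 1, 10 without clone 3, 1 without LIFR KO clone 2, CT clone 2 or any 1 of the FAM3C KO clones, and 2 without the unaltered shPCBP1 line). Where no gene passed with limma, 6 to 18 had an unadjusted p under 0.05. Counts over all genes moved too. For FAM3C KO, 39 became 1048 with the 2 groups fitted alone, 278 after GC correction, 21 with a mean of at least 1 CPM, 15 with the block, 9 with both and 3 to 359 when 1 line was left out. For LIFR KO, 816 became 35 with the 2 groups alone, 359 at an adjusted p under 0.05, 40 after GC correction, 3 with GC correction and block, 281 with clone 1 alone, 478 after rescaling, 10 with the block and 5 to 7234 when 1 line was left out. Between the KO groups, 1045 became 0 with the 2 groups alone and with the block, 587 at 0.05, 67 after GC correction and 1 to 6673 when 1 line was left out. In dataset 2, 9123 became 3543 with a fold change of 1.5. The cause of these moves was not tested. For the named genes, in the comparisons that named them, no direction was reversed: 560 values stayed on their side of the threshold, 112 lost it and 12 gained it. In other comparisons the direction of a named gene could turn. The log2 fold change of Ccl9 in LIFR KO ran from -1.8 to 0.5 when 1 line was left out. The replicate numbers did not pair the lines: the deviations of same-numbered lines of dataset 1 correlated at -0.189 to 0.154 and those of other pairs at -0.184 to 0.152. The correlation was 0.051 in dataset 2, where the block left 33 genes. With 2 to 4 samples per group, the precision is limited by their number, and genes under 1 CPM rest on few reads.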

Other observations

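Several of the genes stood at different levels in the shPCBP1 cells of the 2 datasets, which were normalized separately and are not compared by a test. Cxcl5 had 402 CPM in unaltered shPCBP1 cells of dataset 1 and at 135 CPM in both shPCBP1 samples of dataset 2, Cxcl1 at 111 CPM against 28.5 and 26.8 CPM, and Ccl25 at 33.3 CPM against 6.38 and 6.71 CPM. Il17rb, another interleukin-17 receptor chain, was at 1.75 to 2.55 CPM in the dataset 1 shPCBP1 lines and at 0.0539 and 0.0925 CPM in dataset 2. Il33 (41.3 CPM against 40.5 and 40.0 CPM) and Tnfrsf1b (33.5 CPM against 30.4 and 29.3 CPM) were close.

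The colony-stimulating factor Csf3 was low in dataset 1, at 0.640 to 1.5 CPM in shPCBP1, 0.709 to 0.845 CPM in FAM3C KO and 0.214 to 0.966 CPM in LIFR KO, and at 0.0378 CPM or less in dataset 2. Csf2ra ranged from 0.0468 CPM in the double KO to 2.26 CPM in FAM3C KO clone 1, and its groups overlapped.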
